A study of Mus musculus with 6 samples.

Results

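Saa3, Slpi, Prg4, Cxcl13, Marco, Serpinb2, Icam2, Lrg1, Cd5l and F5 are 10 genes, of 33456 in the files, that are linked with the macrophages of serous cavities such as the peritoneum. They were matched by symbol, and they had been proposed from their uneven counts over the cells and samples of these same data. Their levels, their sharing of cells and their unevenness are therefore descriptions, without tests. Cells of mouse visceral (epididymal) fat had been dispersed with collagenase, sorted for the leukocyte antigen CD45 and the myeloid integrin chain CD11b, and sequenced as single cells. The 6 samples were 3 on a control diet (control 1 to 3) and 3 of the HFD (high-fat diet) group (HFD 1 to 3). The labels give no strain, age, sex or length of feeding and no genotype or other treatment, and they do not say whether samples came from separate animals, so the p-values measure how much these samples vary, and that variation may be technical.

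Resident macrophages of serous cavities, known best from the peritoneum, depend on the transcription factor Gata6 and are known for Alox15, a lipoxygenase, Selp, the adhesion molecule P-selectin, and the coagulation factors F5, F7 and F10. Saa3 is a serum amyloid A protein that is made outside the liver by macrophages and fat cells. Slpi, a secreted inhibitor of neutrophil elastase, and Serpinb2, an inhibitor of plasminogen activators, restrain proteases. Prg4 encodes lubricin, a lubricating proteoglycan of joints and serous surfaces. Cxcl13 attracts B cells through the receptor Cxcr5, and peritoneal macrophages are a known source of it. Marco is a scavenger receptor for bacteria and particles, Cd5l a secreted scavenger receptor family protein that protects macrophages from apoptosis, Icam2 an adhesion ligand of the integrin formed by Itgal and Itgb2, and Lrg1 a secreted glycoprotein that modulates TGF-beta signalling. Epididymal fat is itself covered by the peritoneal lining.

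The samples shared cell barcodes. Of 2195 distinct barcodes among 5511 entries, 1082 (49.3%) occurred in more than 1 sample and 370 in all 6. Each barcode was counted only in the sample where it had most UMIs (unique molecular identifiers, the counted RNA molecules). With at least 200 genes and at most 10% mitochondrial UMIs per cell, 986 control and 1128 HFD cells remained, between 260 and 453 a sample, with median depths between 6299.5 UMIs (control 2) and 10079 UMIs (HFD 1). By their markers most were myeloid, but 231 were fibroblast-like and 51 T or NK cell-like. The assignment of a shared barcode rests on depth alone, and values for the matrices as deposited are given further on.

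Promoter sequence was available in the RefSeq table for 8 of the 10 genes (GRCm38.p6; Prg4 and Icam2 had no entry). The 250 bases before the start of Saa3, Slpi and Cxcl13, which take up most of the UMIs described below, are shown 5′ to 3′ on the gene's strand because all 3 hold a letter pattern of C/EBP, a factor family of acute-phase genes. Capitals mark matches on either strand to AGATAA, the pattern of GATA factors, and to TTGCNNAA, the pattern of C/EBP factors. The windows are chr7:46715677-46715926 (minus strand), chr2:164356508-164356757 (minus strand) and chr5:95956689-95956938 (plus strand), in that order.
Saa3: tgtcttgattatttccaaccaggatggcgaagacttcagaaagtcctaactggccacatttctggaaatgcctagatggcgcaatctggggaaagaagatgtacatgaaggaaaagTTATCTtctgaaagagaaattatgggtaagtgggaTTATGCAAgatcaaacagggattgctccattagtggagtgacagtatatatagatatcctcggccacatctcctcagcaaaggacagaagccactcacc
Slpi: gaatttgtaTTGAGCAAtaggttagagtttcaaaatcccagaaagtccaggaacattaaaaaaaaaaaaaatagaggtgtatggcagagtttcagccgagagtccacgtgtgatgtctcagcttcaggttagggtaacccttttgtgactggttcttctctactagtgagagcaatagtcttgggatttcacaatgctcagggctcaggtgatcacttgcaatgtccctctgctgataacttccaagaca
Cxcl13: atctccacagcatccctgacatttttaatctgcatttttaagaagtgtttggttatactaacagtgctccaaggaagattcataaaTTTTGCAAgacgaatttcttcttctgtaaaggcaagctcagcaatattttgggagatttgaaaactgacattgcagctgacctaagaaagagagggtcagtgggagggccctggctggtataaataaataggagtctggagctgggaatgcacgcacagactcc
The GATA match of Saa3 lies 134 to 129 bases before the start and its C/EBP match 99 to 92 bases before it. The C/EBP match of Slpi lies 241 to 234 bases and that of Cxcl13 164 to 157 bases before the start. Serpinb2 also held both patterns. AGATAA was thus present in 2 of the 8 genes, against 11.4% of all genes in the table, and TTGCNNAA in 4 of the 8, against 10.8%. The pattern searched for NF-kB was in none of the 8 and TTCNNNGAA, a pattern of STAT factors, only in Serpinb2, against 4.41% and 8.13% of genes. The patterns overlap in none of the 3 sequences shown, and a match describes letters, not binding.

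Most UMIs of each of the 10 genes lay in few cells and few samples, although each gene had UMIs in all 6 samples. Low counts were wider, with Slpi in 39.5% and Saa3 in 30.2% of all cells. Control 1 held 15067 Saa3 UMIs, control 2 1392 and control 3 29, and HFD 1, 2 and 3 held 142, 1029 and 482. Scaled to the sample's total, control 1, 2 and 3 had 3889, 697 and 10.7 CPM (counts, here UMIs, per 1000000) and HFD 1, 2 and 3 had 24.9, 287 and 106. The control mean was 1532 ± 2070 and the HFD mean 139 ± 134 CPM (SD, n = 3 each). Control 1 stood highest, control 3 stood below every HFD sample, and the diets overlapped. The highest control sample was 364 times the lowest, and the highest HFD sample 11.5 times the lowest.

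Slpi followed the same order of samples, with 3176, 2132 and 14.7 CPM in control and 40.5, 327 and 229 in HFD, and again control 3 was lowest of all 6. Prg4 was at 220, 129 and 4.79 CPM in control and 3.85, 31.5 and 14.5 in HFD. Serpinb2 was at 152, 127 and 2.58 CPM in control and at 2.10, 16.7 and 12.1 in HFD. For these genes controls 1 and 2 stood above all HFD samples, and control 3 lay below HFD 2 and HFD 3.

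Cxcl13 was high in control 1 alone, at 788 CPM, against 39.0 and 21.7 in controls 2 and 3 and 7.01, 53.5 and 53.2 in HFD. Control 2 and control 3 thus lay inside the range of the HFD samples. Marco, the scavenger receptor, had 870 UMIs in control 1 and 95 in control 2, and exactly 1 UMI in control 3 and in each of the 3 HFD samples.

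The remaining genes were scarcer. Cd5l was at 154, 46.1 and 2.21 CPM in control and 3.33, 8.36 and 9.02 in HFD, and F5 at 25.3, 18.5 and 2.95 against 1.05, 4.46 and 1.98. Icam2 was at 79.8, 41.5 and 7.74 CPM in control and 8.06, 10.6 and 11.7 in HFD. Lrg1 was at 36.7, 16.0 and 0.737 in control and at 7.71, 7.25 and 6.82 in HFD, the narrowest range of the 10 among HFD samples. Controls 1 and 2 stood above the HFD range for 9 of the genes, Cxcl13 being the exception, and control 3 did so for none of them except Marco, at 1 UMI like each HFD sample.

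**Figure D1:**
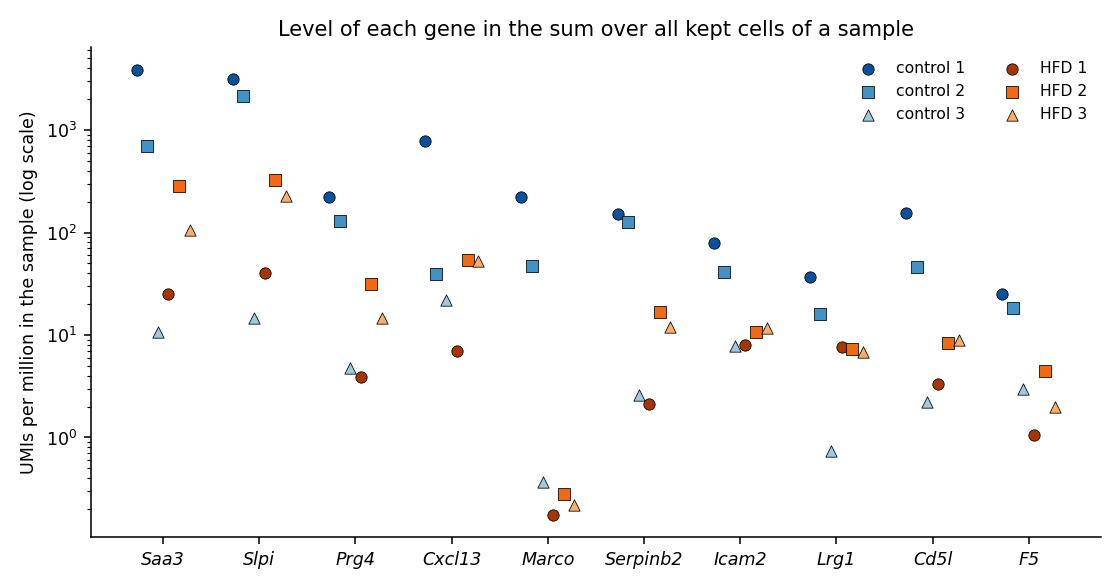
Level of each of the 10 genes in the sum over a sample's kept cells, as CPM (UMIs per 1000000) on a log scale, with 1 point per sample (blue control, orange HFD). Control 1 is highest for every gene, and control 3 lies near or below the HFD samples.

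The cells were clustered with the 10 genes left out of the variable genes, and 1 of the 17 clusters took up most of their UMIs. Its leading gene outside the 10 was Alox15, and it is called the Alox15 cluster here. It held 42 of 2114 cells (1.99%) and 3.03% of all UMIs, but 81.9% of the Saa3, 82.8% of the Marco, 81.7% of the Serpinb2, 77.2% of the Prg4, 76.6% of the Slpi and 72.9% of the Cd5l UMIs. For Lrg1, F5, Cxcl13 and Icam2 the share was 65.3%, 62.1%, 60.6% and 57.5%. Saa3 was at 21855 CPM in these cells and 151 in all others, and Marco at 1180 and 7.68.

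The cluster was macrophage-like by its markers. The complement genes C1qa and C1qb had UMIs in all 42 cells, Csf1r, the receptor for the macrophage growth factor, in 39, and Emr1, which encodes the F4/80 antigen, in 41. C1qa was at 3442 CPM in the cluster and 3275 in the 1382 other macrophage-like cells. The cells were deep, with a median of 15909.5 UMIs against 8511 in all other cells, and the mitochondrial share was alike (2.59% and 2.56%). No doublet caller was run, and whether some of the deeper cells are doublets was not tested.

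The Alox15 cluster was spread unevenly over the samples. It held 21 of 388 cells in control 1 (5.41%, exact 95% binomial interval 3.38 to 8.15%), 10 of 260 in control 2 (3.85%, 1.86 to 6.96%) and 2 of 338 in control 3 (0.592%, 0.0717 to 2.12%). It held 1 of 453 cells in HFD 1 (0.221%, 0.00559 to 1.22%), 5 of 295 in HFD 2 (1.69%, 0.553 to 3.91%) and 3 of 380 in HFD 3 (0.789%, 0.163 to 2.29%). The intervals cover counting error only. Control 3 lay within the HFD range. The interval of HFD 2 overlapped those of controls 1 and 2, and that of HFD 3 overlapped that of control 2. Clustered at a resolution of 0.5 in place of 1.0, the cluster was 32 cells, with 18, 8 and 0 in control and 0, 3 and 3 in HFD, all among the 42.

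Within the cluster the level per cell differed between samples too. In control 1 the 21 cells held 5 to 1459 Saa3 UMIs (median 637) and 6 to 2509 Slpi UMIs (median 121). In control 2 the 10 cells held 8 to 341 Saa3 UMIs (median 101) and 2 to 1189 Slpi UMIs (median 119). In raw UMIs, the Slpi medians were thus alike in the 2 samples while the Saa3 median was lower in control 2. Scaled to UMIs per 10000, the Slpi median was 63.4 in control 1 and 196 in control 2. The Saa3 median was 331 and 51.9 on that scale. Summed over the cluster's cells, Slpi was at 26857 CPM in control 1 and 22999 in control 2, so its order depended on the measure. The 5 cells of HFD 2 held 1 to 522 Saa3 UMIs (median 90) and the 3 cells of HFD 3 held 16, 81 and 202. The single cell of HFD 1 held 28 Saa3, 15 Prg4 and 12 Serpinb2 UMIs and no Slpi. The 2 cells of control 3 were unlike the rest, with no Saa3, Prg4, Marco or Alox15 UMI and 1 or 0 UMIs of each other gene of the 10.

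Marco and Cxcl13 divided the cells of the cluster further. Marco had UMIs in 17 of 21 cells of control 1 (up to 201) and 6 of 10 of control 2 (up to 42). In HFD it had 1 UMI in the HFD 1 cell and none in the 8 cells of HFD 2 and 3, although these held 844 and 299 Saa3 UMIs. Cxcl13 had a median of 35 UMIs in the control 1 cells, 2 in control 2, 31 in HFD 2 and 9 in HFD 3. The low Cxcl13 of control 2 went with high Slpi and Serpinb2, which had a median of 23.5 UMIs there and 19 in control 1.

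**Figure D2:**
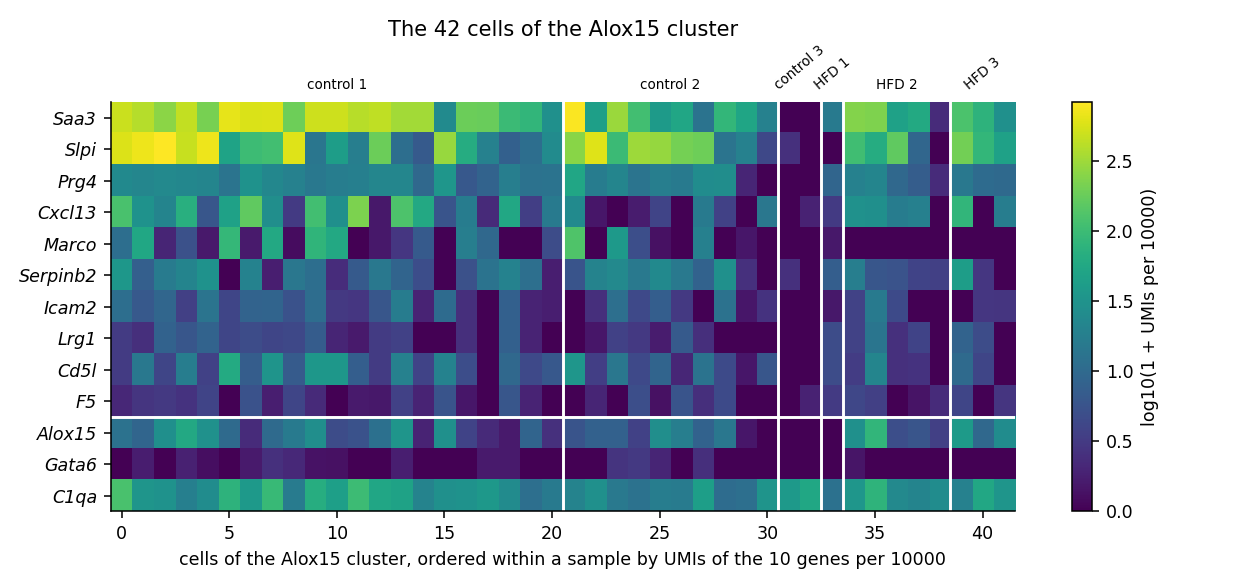
UMIs per 10000 of the 10 genes and of Alox15, Gata6 and C1qa in each of the 42 cells of the Alox15 cluster, as log10(1 + value), with cells in columns grouped by sample. Saa3, Slpi and Prg4 fill nearly all columns, Marco is dark in the HFD cells except for 1 UMI in HFD 1, and the 2 cells of control 3 are dark for the 10 genes while C1qa is present.

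The 10 genes were found together in these cells. A cell of the cluster held a median of 9 of them, against 1 in all other cells. Saa3 had UMIs in 40 of the 42 cells, Slpi and Prg4 in 39 each, Serpinb2 and Cd5l in 37, Cxcl13 in 36, Icam2 in 34, F5 in 31, Lrg1 in 30 and Marco in 24. All 10 were found in 14 cells, each of them in the cluster, 12 from control 1 and 2 from control 2. At least 8 were found in 43 cells, of which 32 were in the cluster, and none of the 10 in 951 cells (45.0%).

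Over the 42 cells, which share 6 libraries and differ in depth, the Pearson correlation of log(1 + UMIs per 10000) was above 0 for 43 of the 45 pairs of genes, with a median of 0.40. It was highest for Saa3 with Prg4 (0.71), Slpi with Prg4 (0.68) and Marco with Cd5l (0.62). It was lowest for Marco with F5 (-0.34), the scavenger receptor and the clotting factor. Over all 2114 cells and 12221 genes, the genes outside the 10 most like Saa3 were Alox15 (0.57), Selp (0.49), Padi4 (0.43), Lyz1 (0.43) and Yam1 (0.38). Alox15 also led for Prg4 (0.70), Slpi (0.54) and Cxcl13 (0.47). After it came Selp (0.62), Padi4 (0.54), Tgfb2 (0.47) and Itga6 (0.43) for Prg4, Selp (0.45), Lyz1 (0.41), Padi4 (0.40) and Retnla (0.35) for Slpi, and Timd4 (0.40), Padi4 (0.39), Selp (0.37) and Vmn2r26 (0.32) for Cxcl13. Alox15 had UMIs in 158 cells, and the correlations are descriptions over cells that share libraries.

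Of 20 other genes of serous cavity macrophages, 19 had a higher level in the Alox15 cluster than in the other macrophage-like cells. Alox15 was in 38 of the 42 cells at 1285 CPM, against 7.03 in the other macrophage-like cells, and Selp in 34 cells at 162 against 1.18. The matrix proteins Fn1 and Thbs1 were at 3557 and 884 CPM against 387 and 24.6. Tgfb2, a growth factor, was in 31 cells at 165 against 1.84, and the integrin chain Itga6 in 32 cells at 237 against 13.5. The clotting factor F10 was in 32 cells at 331 against 22.5, and Timd4, a receptor for dying cells, in 21 cells at 172 against 7.23. The transcription factor Gata6 was seen in 16 of the 42 cells, with 28 UMIs in all, at 41.2 CPM against 0.592. Cd93 was the gene that was lower, at 55.9 against 96.3 pooled over the samples. By sample, the other macrophage-like cells had 27.3, 51.4 and 63.3 CPM of Cd93 in control and 136, 106 and 121 in HFD. Most cluster cells were control, so the pooled difference does not hold for each sample. The cluster was formed from genes such as these, so their levels in it carry no test.

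Timd4 was mostly that of control 1, while Gata6 was mostly that of controls 1 and 2. Gata6 was found in 11 of 21 cluster cells of control 1 and 4 of 10 of control 2. Gata6 had 18 UMIs in the cluster's cells of control 1, 9 in control 2 and 1 in HFD 2, and none in the other samples, and Timd4 had 110, 1 and 3 in the same samples. Alox15 was more widely held, with 535, 159, 0, 0, 117 and 62 UMIs in the cluster's cells of control 1, 2 and 3 and HFD 1, 2 and 3. Alox15 was found in all 8 cluster cells of HFD 2 and 3, which had no Marco.

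**Figure D3:**
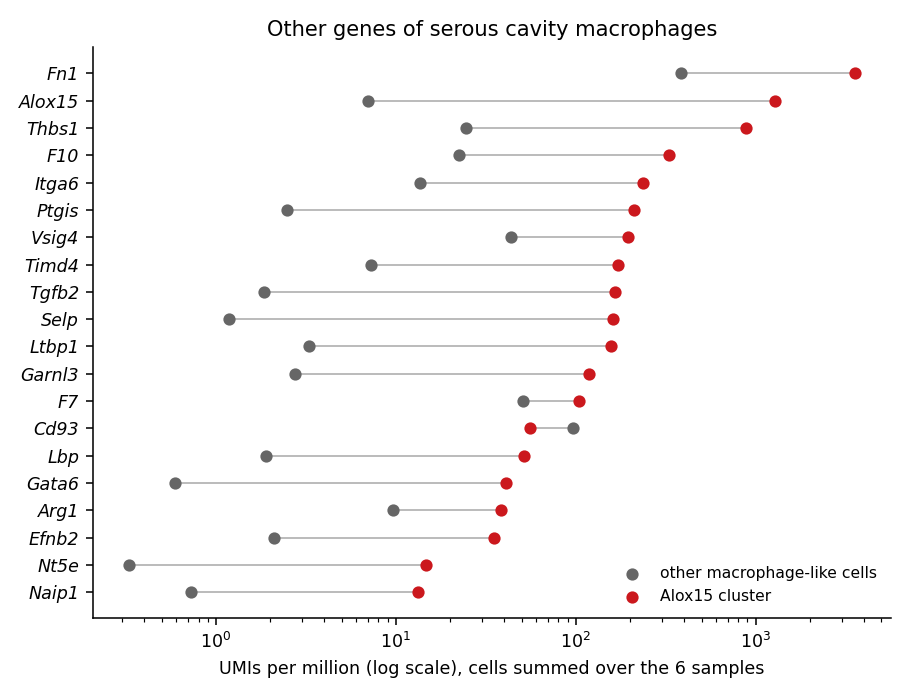
Level of 20 other genes of serous cavity macrophages in the Alox15 cluster (red, 42 cells) and in the other macrophage-like cells (grey, 1382 cells), as CPM on a log scale, with cells summed over the 6 samples. Of the 20 genes, 19 are higher in the cluster, and Cd93 is lower.

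The other serum amyloid genes did not accompany Saa3. Saa1, Saa2 and Saa4, which are made mainly by the liver, had no UMI in the 42 cells. Among 12 acute-phase genes, 5 were higher than in the other macrophage-like cells, such as Hp, haptoglobin (144 against 8.48 CPM), and C3, the central complement component (208 against 33.7). Of 14 products of LPS-treated macrophages, 9 were higher, led by Il1a (190 against 18.7) and Il6 (505 against 63.8), while Tnf was at 188 against 332 and Nos2 had no UMI. Of 13 genes of perivascular resident macrophages 3 were higher (Timd4, Ccl24 and Lyve1), and of 13 lipid-associated genes only Cd9, with a ratio of 1.00. These counts depend on the samples pooled, since the other macrophage-like cells span both diets and most cluster cells are control. In those other cells Cd9 was at 44.3 and 149 CPM in controls 1 and 2 and 678 to 876 in HFD. Lyve1 was at 153 and 130 there and 19.1 to 36.5 in HFD. Of the cluster's 48 Lyve1 UMIs, 27 lay in the 2 cells of control 3. Trem2, a lipid receptor, was at 131 CPM against 1017.

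Some receptors and partners of the 10 genes were present in the cluster and others had no UMI. Cxcr5, the receptor of Cxcl13, and Elane, the elastase that Slpi inhibits, had no UMI in the 42 cells. Itgb2, a chain of the integrin that binds Icam2, was in 41 cells at 583 CPM against 292, while its partner chain Itgal was in 2 cells. Plaur, the receptor of the urokinase that Serpinb2 inhibits, was in 33 cells at 208 against 118. Fpr2 and Fpr1, formyl peptide receptors, were at 53.0 and 29.4 against 4.47 and 1.51. Of 21 such genes 9 were higher in the cluster.

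Markers of other cell types were given the same comparison. Of 11 mesothelial markers 9 were at 0 in the cluster, with Wt1 in 1 cell and Bcam in 18, and of 10 endothelial markers 8 were at 0. Of 10 neutrophil markers 2 were at 0, Ly6g among them, while S100a8 was in 20 cells at 209 CPM against 49.4. The immunoglobulin genes Igkc (30 cells) and Ighm (33 cells) were at 1843 and 2143 against 115 and 220, while Cd79a, a chain of the B cell receptor, was in 4 cells. Summed over the whole samples, the 7 plasma cell markers found were at 293 CPM in control 3 and 2601 to 8068 in the other 5 samples. The 10 neutrophil markers were at 181 and 434 in controls 1 and 2 and at 42.5 to 133 in the other 4, so they too were highest in controls 1 and 2. Their part in the results was not tested.

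Outside the Alox15 cluster the 10 genes had low counts in many cells, and how many cells depended on the sample. Saa3 had UMIs in 353 of 367 other cells of control 1 (96.2%) and 109 of 250 of control 2 (43.6%), but in 7 of 336 of control 3 (2.08%). In HFD 1, 2 and 3 the shares were 5.09%, 19.7% and 13.3%. With each cell thinned to 3000 UMIs, which left out 7 to 51 shallower cells a sample, the control shares became 82.3%, 25.1% and 1.40% and the HFD shares 1.57%, 7.47% and 3.86%, with the samples in the same order. Slpi had shares of 95.4%, 76.8% and 4.76% in control and 11.9%, 25.5% and 28.9% in HFD.

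Other cell types carried the same low signal. In control 1, Saa3 was found in 8 of 9 T or NK cell-like cells (median depth 3948 UMIs), 11 of 11 fibroblast-like cells (9704) and 241 of 252 macrophage-like cells outside the cluster (95.6%, 7559.5). Its level was 533, 530 and 771 CPM in the 3 classes. In control 2 Saa3 was in 40.0%, 66.7% and 42.2% of these classes, and in control 3 in 0 of 10, 0 of 10 and 7 of 249 cells. A count of 0 in 10 cells allows a share of up to 30.8% at the exact 95% interval. In controls 1 and 2 the share in macrophage-like cells lay within the exact 95% interval of the T or NK cell-like cells (51.8 to 99.7% and 12.2 to 73.8%), a class not known for the gene, so the share alone is not read as expression. The level in control 1 was higher in macrophage-like cells, but 1 of them held 299 of the 2573 Saa3 UMIs of control 1 outside the cluster. How much of the level is free RNA was not tested. In HFD 1, 2 and 3 it was 5.28%, 23.0% and 15.8% in macrophage-like cells, against 0 of 9, 1 of 3 and 1 of 10 T or NK cell-like cells.

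**Figure D4:**
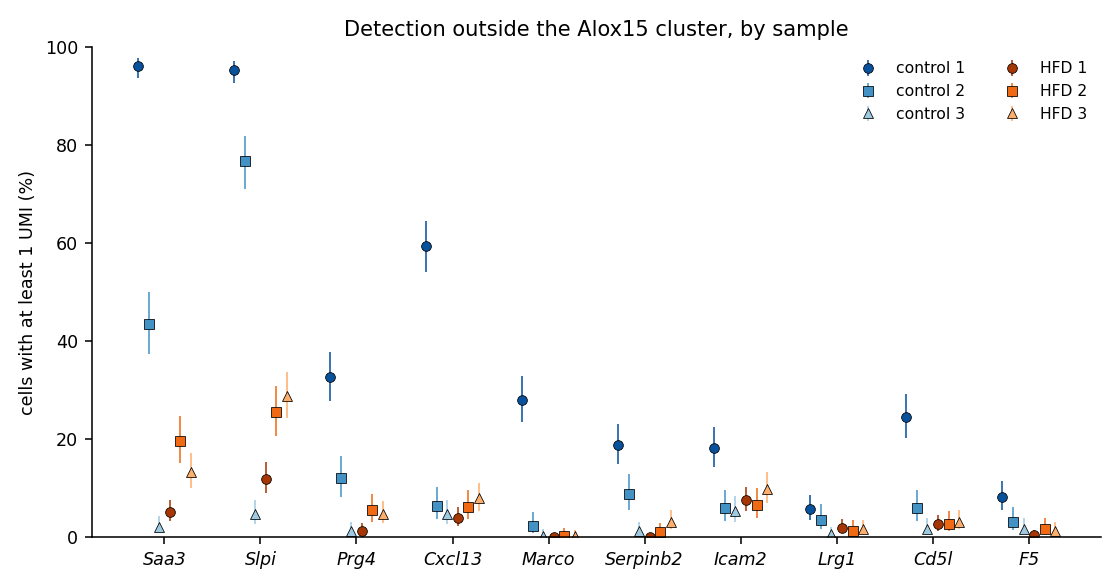
Share of cells outside the Alox15 cluster with at least 1 UMI of each gene, in percent, with exact 95% binomial intervals, 1 point per sample (blue control, orange HFD). Control 1 is highest for every gene, with Saa3 in 96.2% and Slpi in 95.4% of these cells.

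Counts of genes per cell took in many cells outside the cluster. UMIs of at least 4 of the 10 genes were found in 279 cells, 239 of them from control 1 and only 40 in the Alox15 cluster. Their share was 26.7% among control cells and 1.42% among HFD cells. The control share was 4.01% without control 1 and 40.4% without control 3, and the HFD share was 2.22% without HFD 1. The cells with exactly 4 genes, 120 in number, held a median of 12 UMIs of the 10 genes, and the 150 cells with exactly 3 held a median of 7. Of the genes that set the 279 cells most apart, the immunoglobulin segments Igkv5-39 (128 against 1.28 CPM in the other cells), Igkv1-117 (111 against 1.54) and Igkv14-126 (209 against 46.1) had ranks 1, 3 and 5, with counts that are uncertain because near-identical copies exist. Alox15 had rank 2, and among the 20 leading genes were also Thbs1, Lyz1, F10, Fn1, Il6, Retnla and Cd209g. Retnla was at 10407 CPM in the 279 cells and 3440 in the other cells. As 239 of the 279 cells were from control 1, these contrasts are also contrasts between samples, and the part of each was not tested.

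A share of at least 40 UMIs of the 10 genes per 10000, a limit set after the data were seen, singled out 70 cells. They were 39 of the 42 cells of the cluster and 31 others, and the values next to the limit were 40.2 and 39.8. Cells of the cluster ranged from 1.79 to 1301 per 10000 with a median of 407, and the others had a median of 0.566 and a maximum of 311. The 31 others were 24 macrophage-like, 3 plasma cell-like, 2 monocyte-like and 2 fibroblast-like cells, 22 of them control and 9 HFD.

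**Figure D5:**
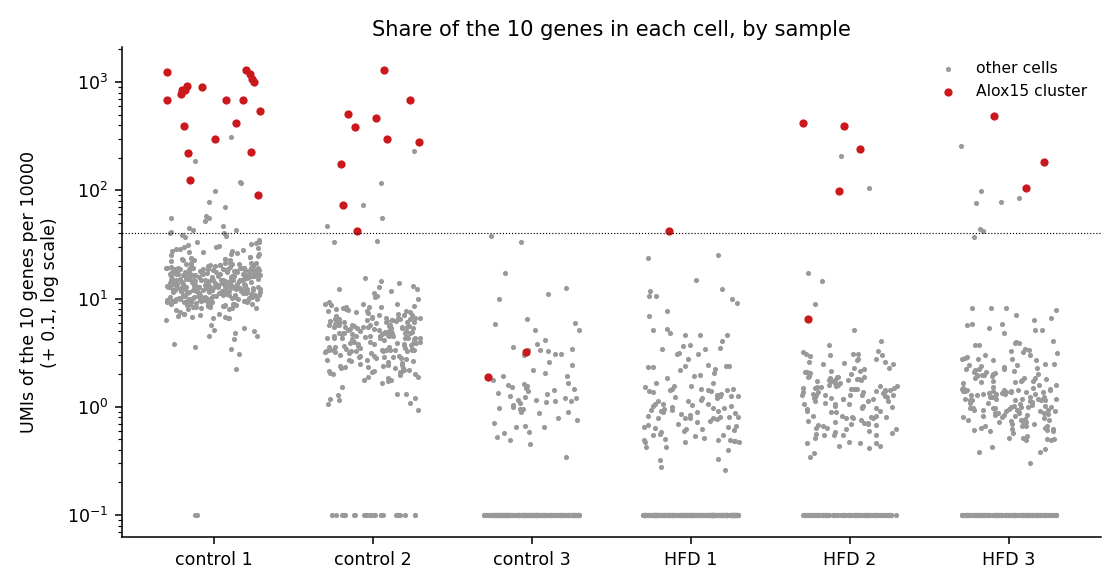
UMIs of the 10 genes per 10000 in each of the 2114 cells, by sample, on a log scale after adding 0.1, with the Alox15 cluster in red and the limit of 40 as a dotted line. In controls 1 and 2 and HFD 2 and 3 most cells of the cluster lie above most other cells, with some overlap, and the bulk of control 1 cells lies higher than in any other sample.

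Single genes could be high without the rest in these 31 cells. Slpi was the only gene of the 10 in 5 of them: 1 plasma cell-like cell of HFD 2 with 361 Slpi UMIs, plasma cell-like and fibroblast-like cells of HFD 3 with 69 and 72, and monocyte-like and macrophage-like cells of control 2 with 60 and 19. Saa3 stood nearly alone in 1 fibroblast-like cell of HFD 3, with 58 Saa3 UMIs and 1 of Slpi. At the other end, 8 of the 31 cells held at least 8 of the genes, such as a macrophage-like cell of control 2 with 429 Slpi, 20 Saa3, 18 Prg4 and 7 F5 UMIs.

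Cxcl13 had carriers of its own. Outside the cluster 22 cells held at least 10 Cxcl13 UMIs, between 10 and 221 with a median of 25. Of these, 20 were macrophage-like and 16 from control 1, and 9 lay in a cluster led by the lectin gene Cd209f and 3 in a cluster led by Cxcl9. Most of them, 18, held fewer than 20 Saa3 UMIs, and those of control 1 had a median of 6.07 Saa3 UMIs per 10000, close to the 5.63 of the other control 1 cells outside the cluster. Alox15 was found in 6 of the 22. In HFD, the highest was a macrophage-like cell of HFD 3 with 118 Cxcl13 UMIs and 1 each of Saa3 and Slpi.

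The matrices as deposited gave each sample more of these genes, through barcodes whose largest entry lay elsewhere. HFD 1 as deposited held 2956 Saa3 UMIs, of which 4.87% stood in largest entries, 77.0% in barcodes with most UMIs in control 1 and 12.0% in barcodes with most UMIs in control 2. In control 3 the 3 shares of 3271 Saa3 UMIs were 0.917%, 81.9% and 10.6%, whereas in control 1 itself 91.7% of 16510 stood in largest entries. The level of Saa3 as deposited was 2956, 1028 and 638 CPM in the controls, against 410, 719 and 556 in HFD.

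The cells of the Alox15 cluster were among those listed repeatedly. Of its 42 barcodes 36 stood in several samples and 24 in all 6, and they had 140 further entries, 68 in HFD samples. At the median, a further entry was 0.178 times as deep as the largest. Saa3 had a median of 244 UMIs per 10000 in the 140 further entries, against 183 in the largest entries of the same barcodes. Clustering the matrices as deposited gave a cluster of 140 entries from 33 barcodes, 31 of them shared with the 42, with 27, 26 and 24 entries in control and 20, 21 and 22 in HFD, in place of 21, 10, 2, 1, 5 and 3 cells.

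The diet comparison asked whether the genes differed between HFD and control once cells were summed per sample. Of the 10 genes 9 passed the filter on low counts. In the whole-sample sums 5 of them fell with HFD at adjusted p below 0.05 and none rose (edgeR's quasi-likelihood test), where 17.2% of 10450 tested genes fell and 15.2% rose. They were F5 (log2 fold change -2.93 ± 0.72 SE, adjusted p = 0.014), Icam2 (-2.30 ± 0.63, 0.022), Cd5l (-3.55 ± 1.01, 0.026), Serpinb2 (-3.44 ± 1.01, 0.030) and Prg4 (-3.09 ± 1.00, 0.042). For none of the 5 were all control samples above all HFD samples, since control 3 lay within or below the HFD range. The genes come from results of the same samples, and the count is not independent evidence of a diet difference.

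Saa3 itself missed the threshold, at -3.64 ± 1.48 (adjusted p = 0.089 by edgeR), as did Slpi (-3.33 ± 1.32, 0.084), Cxcl13 (-3.12 ± 1.24, 0.084) and Lrg1 (-1.53 ± 0.73, 0.14). At an unadjusted p below 0.05, 8 of the 9 genes were lower and 0 higher, and DESeq2 called 3 lower and 0 higher, with 12.6% of all genes lower. The share of all tested genes at the unadjusted limit is not given, here or further on, so counts at that limit are not read as a result. The median log2 fold change was -3.12 over the 9 genes and -0.02 over all tested genes. Marco failed the filter, since it had 1 UMI in each HFD sample and in control 3.

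The count rested on single samples. It was 0 without control 1 (3 of the genes lower at an unadjusted p below 0.05), 3 without control 2, 10 without control 3, 1 without HFD 1, and 2 without HFD 2 or HFD 3. Without control 2 the 3 were Icam2, Cd5l and F5. Marco, which among these fits passed the filter when control 3 or an HFD sample was left out, was the single gene called without HFD 1 (adjusted p = 0.043 by edgeR), so none of the 5 genes above was called there. Marco passed only through controls 1 and 2, with 870 and 95 UMIs against 1 in each other sample. Its calls are therefore not read as a result. Without HFD 2 or HFD 3 the called genes were Marco and F5 (F5 at adjusted p = 0.025 and 0.049). In these fits 14.1%, 13.4%, 15.6%, 11.1%, 12.2% and 13.8% of all tested genes were lower, in the same order. Without control 1, Cxcl13 turned to 0.19 ± 0.71 (adjusted p = 0.87). Summed without the Alox15 cluster, an alternative chosen after the data were seen, 3 of the genes were lower, where 17.1% of all genes were: Prg4 (-2.62, adjusted p = 0.027), Serpinb2 (-3.36, 0.029) and Cd5l (-2.51, 0.043).

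Within macrophage-like cells the same 5 genes fell, at log2 fold changes of -3.09 (F5), -2.59 (Icam2), -3.71 (Cd5l), -3.47 (Serpinb2) and -3.38 (Prg4), with adjusted p between 0.013 and 0.028 (edgeR), where 18.2% of 9241 genes fell and 14.6% rose. Saa3 was at -3.85 (adjusted p = 0.070), Slpi at -3.95 (0.054), Cxcl13 at -3.27 (0.066) and Lrg1 at -1.61 (0.13). The median of the 9 was -3.38, against -0.03 over all tested genes. The count was 0 without control 1 (6 lower at an unadjusted p below 0.05), 2 without control 2, 10 without control 3, 1 without HFD 1, 3 without HFD 2 and 4 without HFD 3, where 14.2%, 14.1%, 16.9%, 12.1%, 13.8% and 14.6% of all tested genes were lower. The single gene without HFD 1 was again Marco (adjusted p = 0.030), and Marco was also among the 3 without HFD 2 (with Prg4 and F5) and the 4 without HFD 3 (with Icam2, Cd5l and F5). Here too the calls of Marco are not read as a result. Summed without the Alox15 cluster, 5 genes were lower, where 18.5% of all genes were, but not the same 5: Saa3 (-3.88, adjusted p = 0.014) and Cxcl13 (-3.10, 0.044) were now called with Prg4, Serpinb2 and Cd5l, Icam2 was not, and F5 was not tested.

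In the matrices as deposited, where samples share barcodes and are not independent, the log2 fold changes were smaller. Saa3 was at -1.58 (adjusted p = 0.027 by edgeR), Slpi at -1.33 (0.015) and Cxcl13 at -1.43 (0.030) in whole-sample sums. Of the 10 genes 9 were called lower in whole-sample and in macrophage-like sums, Lrg1 being the exception, where 13.5% and 12.6% of all tested genes were lower.

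Fibroblast markers moved with diet in the whole-sample sums. The 10 markers summed to 2207, 965 and 1845 CPM in control and to 6500, 7533 and 6620 in HFD, and fibroblast-like cells numbered 11, 3 and 10 in control and 79, 53 and 75 in HFD. Their part in the whole-sample values was not tested, and the macrophage-like sums leave these cells out.

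The 20 other serous macrophage genes moved less evenly. In whole-sample sums 18 were tested, of which 5 fell and 2 rose, with a median log2 fold change of -1.37, beside the 17.2% that fell, the 15.2% that rose and the median of -0.02 over all tested genes. Those that fell were Timd4 (-4.07, adjusted p = 0.0049), Arg1 (-3.63, 0.022), Efnb2 (-3.58, 0.0029), Fn1 (-1.79, 0.00098) and F10 (-1.63, 0.0063), and those that rose Lbp (1.49, 0.042) and Cd93 (1.18, 0.0033). Alox15 was at -2.40 (adjusted p = 0.14 by edgeR), Selp at -2.30 (0.068) and Gata6 at -0.07 (0.94). The Gata6 value takes in cells of every type, so it is not read as a value for macrophages. Of the 28 Gata6 UMIs in the Alox15 cluster, 18 came from control 1, 9 from control 2 and 1 from HFD 2. Among the other macrophage-like cells, Gata6 was highest in HFD 3, at 1.55 CPM. Which cells gave the rest of the whole-sample Gata6 was not tested. In macrophage-like cells 14 of the 20 genes were tested, and Gata6 was not among them. Of the 14, 7 fell, Selp (-2.45, 0.048) and Thbs1 (-3.32, 0.014) now among them, and 1 rose, beside 18.2% and 14.6% of all tested genes.

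Related lists differed in direction, beside the same 17.2% and 15.2% of all genes. Of 13 perivascular resident macrophage genes 11 fell in whole-sample sums and none rose (median -2.79), and of 13 lipid-associated genes 9 rose and none fell (median 1.43). Of 13 tested products of LPS-treated macrophages 5 fell, among them Il6 (-2.27, adjusted p = 0.00037) and Il1b (-1.48, 0.00035), and Socs3 rose (0.83, 0.00076). Of 4 tested acute-phase genes C3 rose (1.46, 0.015) and Il1rn fell (-0.77, 0.020). Of 16 tested receptors and partners 6 rose, such as Plat, the tissue plasminogen activator (1.39, 0.00089), and 4 fell, such as Plaur (-0.86, 0.0018). In macrophage-like sums 4 of 16 tested receptors and partners rose and 6 fell, beside 14.6% and 18.2% of all tested genes. There Plat fell (-1.32, adjusted p = 0.014 by edgeR) and Plaur fell again (-0.74, 0.015), while C3 was at -0.44 (0.56).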

How the data were processed

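Cells of mouse epididymal fat sorted for CD45 and CD11b were sequenced in 3 control and 3 HFD samples. The authors deposited raw UMI counts per gene and cell, 1 matrix per sample, with gene identifiers and symbols. Per the submitters' processing notes, the build was mm9 and the tools were Cell Ranger and Seurat 2.4, with no role stated. Barcode calling and cell filters are not given in the sources used here. The matrices held 4477100 to 6992602 UMIs and 710 to 1200 barcodes.

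Each barcode was kept in the sample with its most UMIs, with at least 200 genes and at most 10% mitochondrial UMIs. Counts were scaled to 10000, logged, and clustered without the 10 genes (2000 variable genes, 30 components, 20 neighbours, scanpy 1.11.5, leidenalg 0.10.2, resolution 1.0). Class names came from fixed marker lists, with naming thresholds set after the data were seen (3 markers among the 20 leading genes, or 6 macrophage markers in 50% of cells). No doublet caller was run. UMIs were summed per sample and tested as HFD minus control with edgeR 4.0.16 (quasi-likelihood, TMM, filterByExpr, Benjamini-Hochberg over all tested genes, threshold 0.05), with DESeq2 1.42.0 as an alternative, under R 4.3.3. The edgeR test was checked on simulated counts. In whole-sample sums it called 93 of 96 genes changed 4-fold, 58 of 98 changed 2-fold and 17 of 10000 unchanged. The changed genes were drawn at random from all tested genes, so these rates do not describe the 10 genes. Those of the 10 that were tested had standard errors of 0.63 to 1.48, and Saa3 was not called at -3.64.

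The 10 genes, the lists and the alternatives were chosen with earlier results of these data known. The genes named beside the 10 are those of the lists that were called by edgeR or found in at least 10% of cells with 4 of the genes, the 5 most correlated with Saa3, Slpi, Prg4 and Cxcl13, and the 20 that most set apart cells with 4 of the genes. Not all of these are reported. Genes named for the Alox15 cluster, and absent marker or list genes, were chosen after their values were seen. Lyz1 and the Cd209 and immunoglobulin genes have near-identical copies, and their counts are uncertain. Promoters were taken by symbol from RefSeq (GRCm38.p6), a later build than mm9, and were not placed on the files' build.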

Additional observations from a re-analysis of the deposited data

How the results depend on the processing

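The main limits are the barcodes shared between samples, 3 samples a diet, and the scarcity of the genes, with F5 at 6 to 98 UMIs a sample. Of the 10 genes, the count lower with HFD was 5 in both whole-sample and macrophage-like sums. It was 9 in both with all barcodes as deposited, where 13.5% and 12.6% of all tested genes were lower. With no filter on low counts it was 10 in both, where 1818 of 18232 and 1787 of 17066 tested genes were lower. Standard errors were smaller there, 0.91 and 0.42 for Saa3 against 1.48 and 1.46 in the main form. With DESeq2 the count was 3 in both, where 1315 of 10450 and 1174 of 9241 genes were lower. With barcodes listed in exactly 1 sample it was 0 in both by edgeR, where 975 of 6810 and 816 of 5149 tested genes were lower. At an unadjusted p below 0.05, 2 and 1 of the 10 genes were lower in that form. That form tested 7 and 6 of them, in 101 to 285 and 48 to 171 cells a sample. Leaving out 1 sample gave 0 to 10 in both. Without the cells of the Alox15 cluster the whole-sample count was 3 and the macrophage-like count 5, with Saa3 and Cxcl13 gained. Marco, not tested in the main form, is in every leave-one-out count it passed the filter for. It passed only through controls 1 and 2, where it was high, so those calls are not read as a result. The count of all genes called, 3389 and 3037, was 1940 and 1417 with barcodes in exactly 1 sample, and 2233 to 3333 and 1993 to 3026 when 1 sample was left out, lowest without HFD 1. The Cxcl13 log2 fold change turned from -3.12 and -3.27 to 0.19 and 0.11 without control 1, the highest values of the fits that left out 1 sample, and was lowest, at -3.67 and -3.82, without control 3. All other values of single genes under the alternatives kept their direction, 112 of 113 in whole-sample sums and 111 of 112 in macrophage-like sums. Of the 113, 31 lost the call and 11 gained it, and of the 112, 28 and 14. The share of HFD cells with at least 4 of the genes, 1.42%, was 3.55% for at least 3 genes and 3.98% as deposited. The control share, 26.7%, was 8.28% in cells thinned to 3000 UMIs, 15.0% for at least 5 genes and 11.2% as deposited. The shares of the 3 control samples themselves were 61.6%, 8.85% and 0.296%. Their SD is larger than 26.7%, so no lower share could fall outside that spread, and the spread is no sign of stability. DESeq2 gave no adjusted p for Cxcl13, and F5 was not tested without the Alox15 cluster. The causes of these changes were not tested.

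The labels number the samples 1 to 3 in each diet and do not say that equal numbers pair them. Deviations from the group means correlated at -0.16, -0.07 and -0.12 between equal numbers in whole-sample sums and at -0.20, -0.01 and -0.14 in macrophage-like sums, and 0 samples correlated best with their own number. With the replicate number as a block, 1 of the 10 genes was called in each (F5, adjusted p = 0.028 and 0.019 by edgeR), and 2416 and 2334 genes in all. Of all tested genes, 1302 of 10450 and 1322 of 9241 were lower in these fits.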
